A study of Mus musculus with 12 samples.

Results

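The mitochondrial protein import machinery was taken as every gene of the deposited count table whose symbol begins with Timm or Tomm followed by a digit, together with Samm50, Mtx1, Mtx2, Pam16, Dnajc19, Grpel1, Grpel2, Pmpca, Pmpcb, Chchd4 and Gfer. The rule found 31 genes of 11385, 13 Timm genes, 7 Tomm genes and all 11 genes given by name. The study sequenced total RNA from germinal-vesicle oocytes, which are held in meiotic prophase, of unprimed mice aged 21 to 23 days and labelled C57BL/6J. Oocytes came from WT, Mfn1-/-, Mfn2-/- and Mfn1&2-/- mice, the last lacking both genes, in 4 groups of 3 libraries with 50 oocytes, stripped of their cumulus cells, in each library. The labels list no treatment beyond the genotype. The labels tell neither how nor in which cells the alleles were deleted, nor whether replicate pools came from different mice, so the p-values reflect only pool-to-pool spread. Mfn1 and Mfn2 encode mitofusins, GTPases that join the outer membranes of neighbouring mitochondria.

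Nearly all mitochondrial proteins are encoded in the nucleus, made in the cytosol and imported. Precursors cross the outer membrane through the TOM complex, and barrel-shaped proteins are then placed in that membrane by the SAM complex. The TIM23 complex and its ATP-driven motor pull precursors with a cleavable presequence into the matrix, the TIM22 route inserts carrier proteins into the inner membrane with the help of small TIM chaperones, and the MIA relay folds small cysteine-rich proteins between the membranes. The oocyte passes its mitochondria to the embryo.

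A short motif lay near the start of many of these genes. RefSeq promoter windows (GRCm38.p6), from 250 bases before to 50 bases after a start, were matched by symbol for 28 of the 31 members (not for Tomm7, Grpel2 or Timm21), with 29 windows since Tomm34 had 2. The ETS motif CCGGAAG, bound by factors such as GABP, was searched on both strands and lay in 14 of the 29 windows (48.3%), against 17.6% of 11562 windows of the genes tested here and 8.86% of all 32851 windows. The 80 bases before the start are shown for 6 members that hold the motif, written in capitals on either strand (CTTCCGG is its reverse complement), and then for 2 abundant members that do not.

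Tomm22 (chr15:79670788-79670867, plus strand): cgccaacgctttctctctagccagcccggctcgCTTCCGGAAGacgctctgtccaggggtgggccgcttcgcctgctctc
Timm23 (chr14:32201892-32201971, minus strand): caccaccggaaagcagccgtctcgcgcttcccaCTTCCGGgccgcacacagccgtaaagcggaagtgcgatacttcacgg
Timm8a2 (chr14:122034594-122034673, plus strand): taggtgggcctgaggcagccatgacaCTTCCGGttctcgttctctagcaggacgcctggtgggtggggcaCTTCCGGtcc
Mtx2 (chr2:74825732-74825811, plus strand): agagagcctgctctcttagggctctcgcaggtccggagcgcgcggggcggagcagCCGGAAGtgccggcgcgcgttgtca
Pmpcb (chr5:21737080-21737159, plus strand): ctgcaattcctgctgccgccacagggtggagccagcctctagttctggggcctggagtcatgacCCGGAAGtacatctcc
Tomm70a (chr16:57121634-57121713, plus strand): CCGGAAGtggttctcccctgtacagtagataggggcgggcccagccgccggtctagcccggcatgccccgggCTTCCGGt
Timm44 (chr8:4275906-4275985, minus strand): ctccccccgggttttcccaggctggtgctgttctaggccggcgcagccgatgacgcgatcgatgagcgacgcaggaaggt
Timm9 (chr12:71136676-71136755, minus strand): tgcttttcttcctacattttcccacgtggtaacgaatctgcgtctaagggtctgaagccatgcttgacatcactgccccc

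In Tomm22, which encodes a receptor of the TOM complex, a match on each strand overlapped in a single run of bases. In Timm8a2 and Tomm70a, 2 matches lay before the start, and the other 3 had 1 each. With 1 window per gene there were 21 matches in 13 members, of which 19 began within 60 bases of the start and 15 lay before it. The windows end 50 bases after the start, so any match after it falls within 60 bases. Positions were not compared with those in other genes. The Sp1 motif GGGCGG was found in 65.5% of the member windows and in 61.3% of those of tested genes. On both strands, the NRF-1 core CGCATGCG was found in Timm13 alone, or 3.45% of member windows against 3.98% for tested genes. The YY1 motif AAGATGGCG was found in Mtx1 and Timm50 (6.90% against 3.06%), and TATAAA in Timm13 and Dnajc19 (6.90% against 7.24%). None of the 5 motifs contains another, and a match is a description of the sequence, not of binding.

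**Figure D1:**
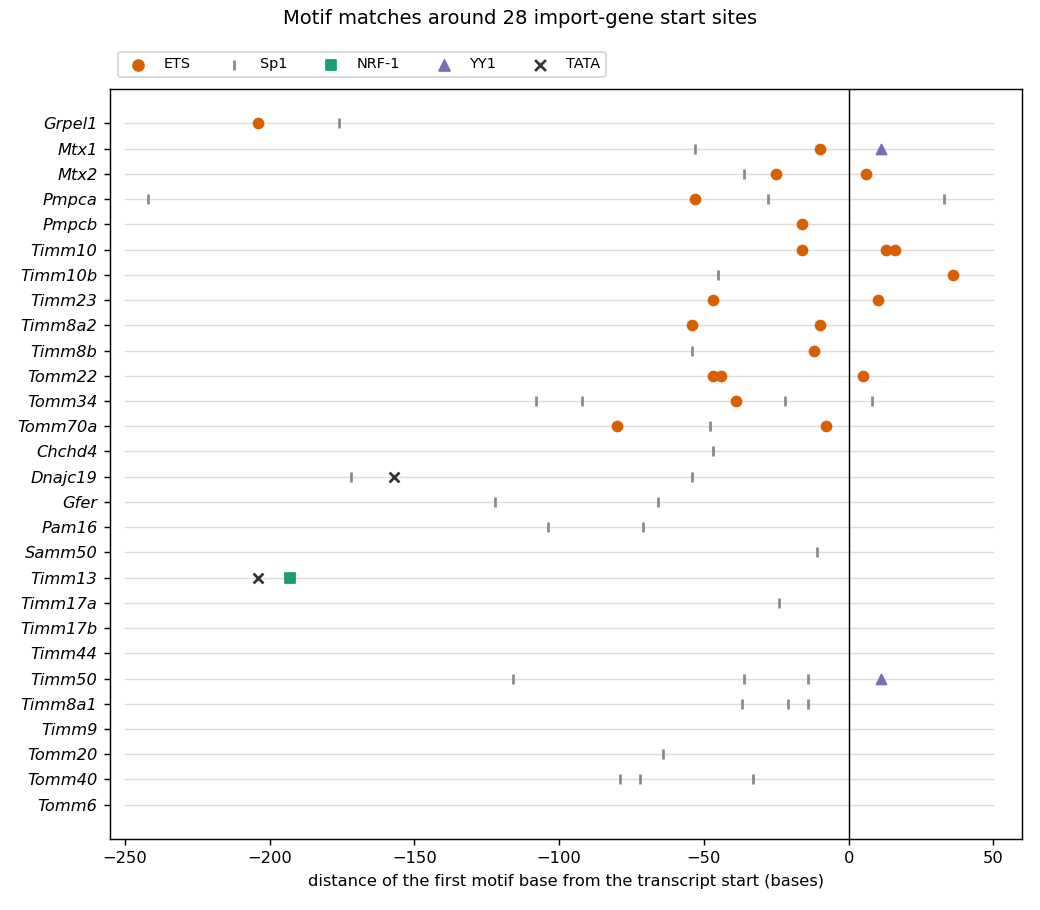
Positions of the 5 motifs around the start sites of the 28 members with a promoter window, 1 row per gene and the first window of Tomm34. The x axis is the distance in bases of the first motif base from the transcript start, and 19 of the 21 orange ETS points lie within 60 bases of it. The windows end 50 bases after the start, and positions in other genes were not compared.

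The 12 libraries held 11575357 to 16024893 counts over the 11385 genes, where 3 counts were worth 0.188 to 0.253 CPM, the count scaled to library size with TMM factors. Mfn1 and Mfn2 matched the labels: Mfn1 stood at 14.8 to 26.4 CPM in the Mfn1-/- and Mfn1&2-/- libraries and at 217 to 297 in the others, and Mfn2 at 9.19 to 13.5 against 64.3 to 87.2. All 10 oocyte markers were measured, and their summed level was 9471 to 13940 CPM. In Mfn2-/- libraries that sum (12769 to 13940 CPM) lay above every WT library (9471 to 12001), and 4 of the 10 were called higher (all genes called 11.4%). Of 13 granulosa markers 10 were measured, and their sum was 523 CPM in WT replicate 3 and 148 to 219 CPM in the other 11 libraries. By group the sum was 187 to 523 CPM in WT, 160 to 181 in Mfn1-/-, 153 to 177 in Mfn2-/- and 148 to 155 in Mfn1&2-/-. Of the 10 measured, 4 (Inha, Inhba, Inhbb and Hsd17b1) were called lower in Mfn2-/- against WT, and 2 (Kitl and Inha) in Mfn1&2-/- against WT (all genes called 4.21%). Each of the 4 was highest in WT replicate 3. Inhba stood at 71.3 CPM there and at 1.84 and 5.31 in WT replicates 1 and 2, and for Inhbb these were 155, 4.47 and 10.6. Of 7 markers of other ovarian and blood cells the table holds only Pecam1, at 127 to 145 CPM in Mfn1&2-/- and 91.5 to 113 in the other libraries. Pecam1 was called higher in Mfn1&2-/- against WT, Mfn1-/- and Mfn2-/- (all genes called 4.21%, 5.36% and 10.2%).

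Per length of the transcript, import genes spanned a wide range in these oocytes. The mean over 12 libraries, in CPM per kb of the principal transcript, was highest for Gfer (87.6 ± 10.6, SD over 12 libraries), the sulfhydryl oxidase of the MIA relay. Timm9 (79.9 ± 5.20), a small TIM chaperone, and Pam16 (69.0 ± 5.65), which holds the J protein of the motor at the channel, came next, and the ranges of these 3 overlapped. Timm44, the anchor of the motor, followed at 32.1 ± 4.17. Chchd4, the relay's import receptor and the partner that Gfer reoxidizes, was the lowest member at 0.431 ± 0.240 CPM per kb. Gfer stood at the 93.7 percentile and Chchd4 at the 2.3 percentile of the 11038 genes of the count table with a coding transcript. That table holds only genes above 1 CPM in 3 or more libraries, so these are percentiles among detected genes. Levels and ranks per kb rest on the length of 1 annotated transcript per gene, and the isoforms present in these oocytes were not determined. Chchd4 had 4 to 41 counts in a library, so only large changes of it could be seen at this depth.

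**Figure D2:**
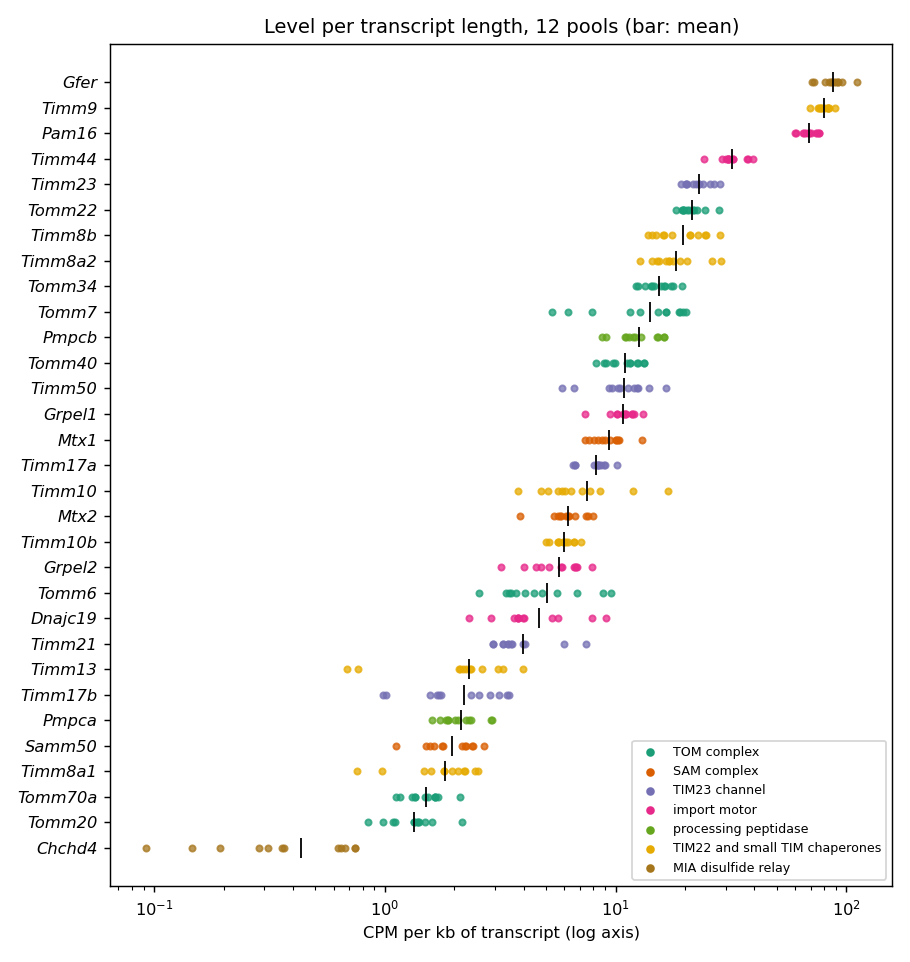
Level of each of the 31 members in CPM per kb of transcript on a log axis, 1 point per library (12 per gene), with a bar for the mean. Colours give the complex or role, with all 7 Tomm genes, Tomm34 among them, placed under the TOM complex. Gfer and Chchd4, both of the MIA relay, stand at the ends of the range (87.6 and 0.431).

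The pool-to-pool spread also differed among members. The SD within groups, pooled over the 4 groups on a log2(CPM + 1) scale, was 0.28 in the median member and 0.24 in the median gene. It ran from 0.10 for Pam16 to 0.55 for Timm10, a partner of Timm9.

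Summed over the 31 members, the level was 748 ± 36.9 CPM in WT, 768 ± 39.4 in Mfn1-/-, 752 ± 19.0 in Mfn2-/- and 794 ± 14.1 in Mfn1&2-/- (mean ± SD, n = 3). Across the 31 members the median log2 fold change against WT was 0.05 in Mfn1-/-, 0.02 in Mfn2-/- and 0.08 in Mfn1&2-/-. Over all genes those medians were -0.01, 0.01 and 0.00. Sums and medians over members were not tested.

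Tomm7 was the only member that edgeR called in any comparison. It encodes a small subunit that modulates the assembly of the TOM complex and is needed to hold the kinase PINK1 at the outer membrane. The gene lies on chr5:23838944-23844161 (GRCm38), minus strand, and no exon of another annotated gene overlaps its exons. Tomm7 stood at 14.4, 22.7 and 22.0 CPM in the WT libraries and at 18.6, 18.6 and 17.2 in Mfn1-/-. It stood at 5.99, 6.98 and 8.90 CPM in Mfn2-/-, and at 13.0, 21.2 and 21.3 in Mfn1&2-/-. All 3 Mfn2-/- libraries were below each of the other 9, and the other 3 groups overlapped.

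Against WT, Tomm7 fell in Mfn2-/- by 1.43 on the log2 scale (SE 0.25, edgeR p adjusted over all 11385 genes = 0.00231), to 0.371 times the WT level (95% interval 0.256 to 0.537). Fewer transcripts per oocyte and a smaller share among more RNA cannot be told apart in pooled oocytes. Tomm7 was 2.54 times as high in Mfn1&2-/- as in Mfn2-/- (95% interval 1.75 to 3.67, adjusted p = 0.00389 by edgeR). Both calls held without any 1 of the 12 libraries, with log2 changes of -1.62 to -1.31 and of 1.22 to 1.54. Without WT replicate 3, the library with the high granulosa markers, Tomm7 differed between Mfn2-/- and WT by -1.34 (adjusted p = 0.0102, edgeR).

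Loss of Mfn1 alone left Tomm7 at a log2 change of -0.12 (95% interval -0.64 to 0.39), and loss of both genes at -0.09 (-0.61 to 0.43). The interaction asks whether the effect of losing Mfn2 differs between oocytes with and without Mfn1. For Tomm7 the effect without Mfn1 was higher by 1.46 (SE 0.35, edgeR adjusted p = 0.0325). That call ended (adjusted p 0.0550 to 0.0773) without any of 9 libraries: WT replicate 2 or 3, any Mfn1-/- replicate, Mfn2-/- replicate 1 or 2, or Mfn1&2-/- replicate 2 or 3. Summed granulosa markers were below WT in every mutant, while summed oocyte markers lay above every WT library in Mfn2-/-. The part of either in these differences was not tested. The interaction stayed between 1.34 and 1.66 in all 12 fits with a library left out. These 3 comparisons share the Mfn2-/- libraries, so they are not independent of each other. Tomm7 has 2 near-identical annotated copies, Gm13450 and Gm45113, neither of which is in the count table, so reads of the copies could have been counted for Tomm7 or lost. Near-identical means, here and below, at least 90% identity over at least 80% of the coding sequence. Only coding bases were searched, 165 of the 1125 transcript bases of Tomm7.

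**Figure D3:**
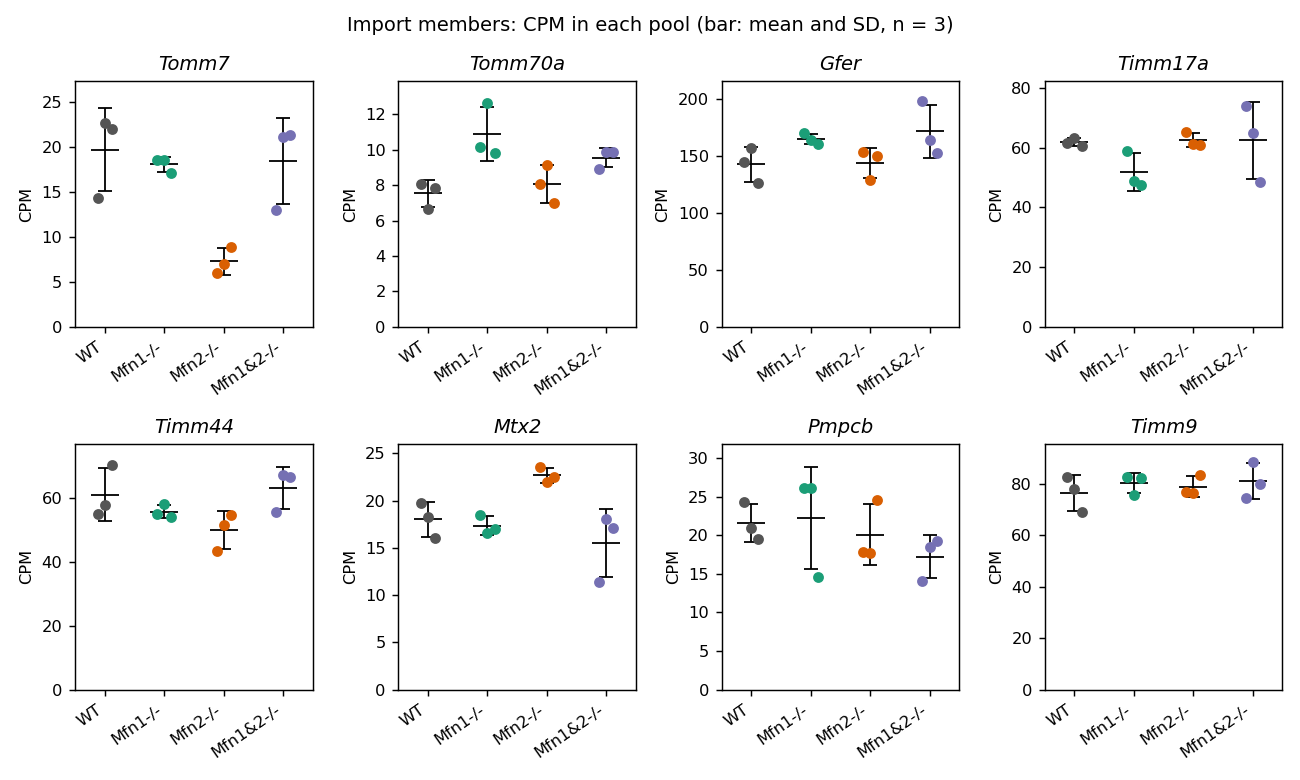
CPM (linear axis from 0) in each of the 3 libraries of each group for 8 members, with the mean and SD as bars. The Mfn2-/- points of Tomm7 (5.99 to 8.90) lie under all others, and the Mfn2-/- points of Mtx2 (21.9 to 23.6) lie above all others.

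The members' counts are given beside the share of all genes called, with no test of the difference. In Mfn2-/- against WT, 1 of 31 members was called at an edgeR adjusted p below 0.05, Tomm7, against 11.4% of all genes. At an unadjusted p below 0.05 the count was still 1, against 26.0% of all genes. In Mfn1-/- against WT no member was called, against 0.228% of all genes, and 2 had an unadjusted edgeR p below 0.05, against 12.8%. DESeq2 called 0 members there and 1.97% of the 11376 genes it gave an adjusted p. In Mfn1&2-/- against WT edgeR called no member and 4.21% of all genes, with 1 member (Gfer) at an unadjusted p below 0.05 against 18.6%, while DESeq2 called 0 members and 7.33% of 11376 genes.

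Annotation limits what a count can show: 15 of the 31 members share exon bases with another annotated gene, 13 of them with one on the opposite strand, and 11 have near-identical copies, none of which is in the count table.

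The same counts were made between mutants. In Mfn1&2-/- against Mfn1-/- edgeR called no member and 5.36% of all genes, with 0 members at an unadjusted p below 0.05 against 20.7%, and DESeq2 called 0 members and 9.18% of its 11376 genes. In Mfn1&2-/- against Mfn2-/- the count was 1 (Tomm7) against 10.2%, and 7 members had an unadjusted p below 0.05 against 25.7%. There DESeq2 called 2 members, Tomm7 and Timm17b, and 14.7% of the 10713 genes it gave an adjusted p. The interaction was called for 1 member (Tomm7) against 4.13% of all genes, and 2 (Tomm7 and Timm44) had an unadjusted p below 0.05 against 21.1%.

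Groups whose 3 libraries did not overlap were counted without a test. For Mfn1-/- against WT they did not overlap in 6 members (19.4%, all genes 18.1%), for Mfn2-/- against WT in 5 (16.1%, all genes 32.0%), and for Mfn1&2-/- against WT in 7 (22.6%, all genes 22.1%). For Mfn1&2-/- against Mfn1-/- it was 2 members (6.45%, all genes 26.0%), and against Mfn2-/- it was 5 (16.1%, all genes 31.5%). The precision varied: the 95% interval of the fold change lay within 2-fold in both directions for 21 of 31 members in each comparison with WT. For the remaining 10, among them Tomm7, Chchd4, Dnajc19 and Timm13 in Mfn2-/-, a 2-fold change lay inside the interval.

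**Figure D4:**
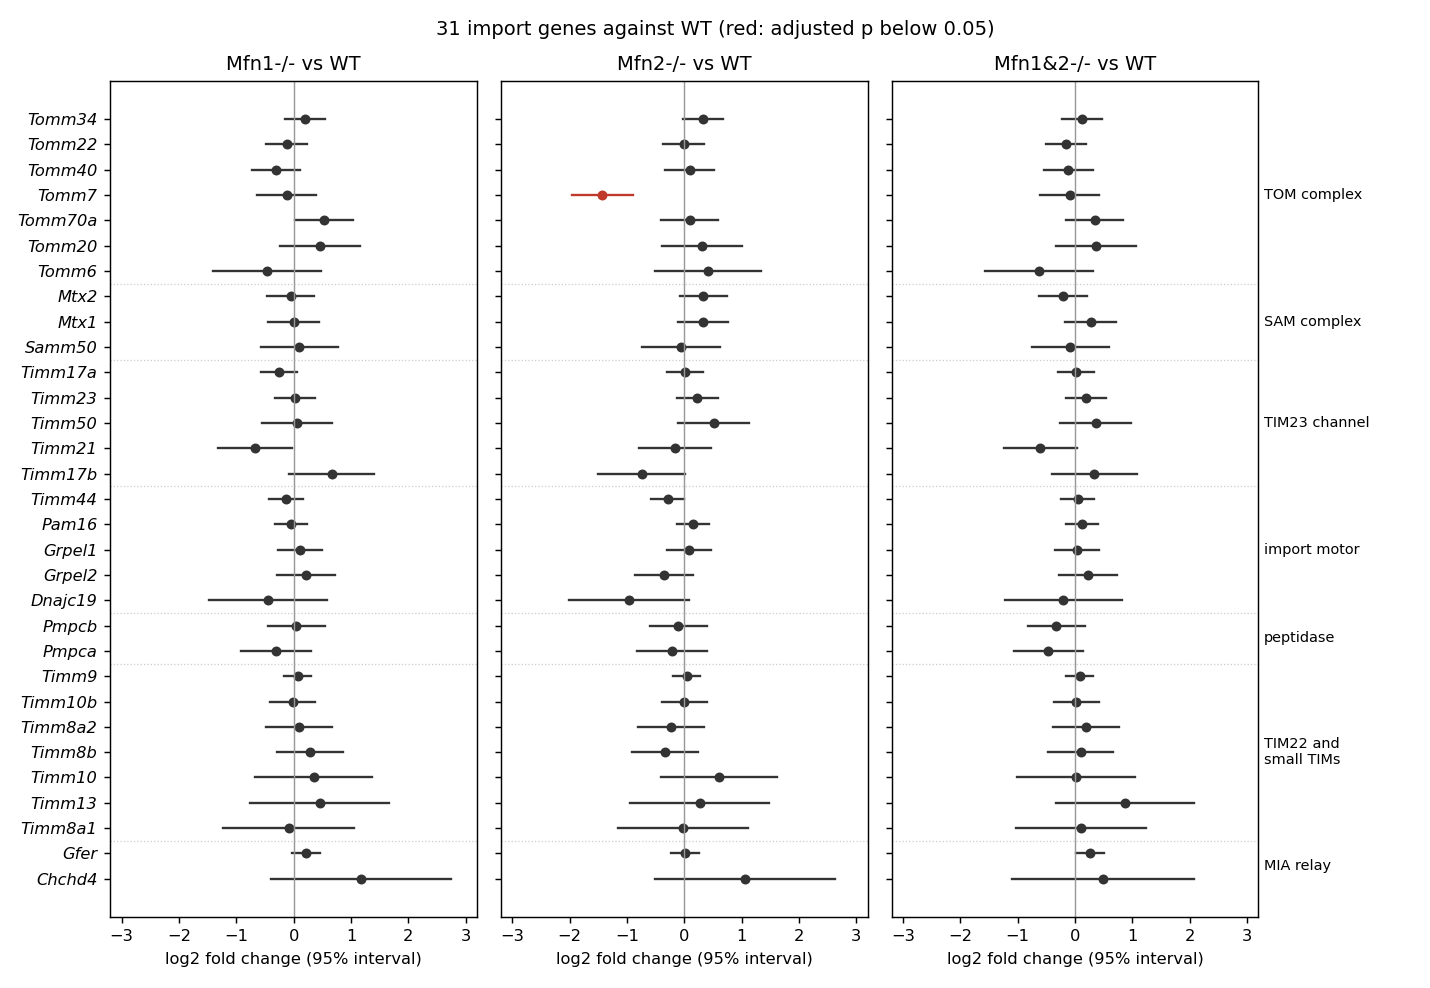
log2 fold change against WT with its 95% interval for the 31 members, grouped by complex or role, in Mfn1-/-, Mfn2-/- and Mfn1&2-/-. All 7 Tomm genes, Tomm34 among them, are placed under the TOM complex. Tomm7 in Mfn2-/- (-1.43, red) is the point with an adjusted p below 0.05, and the widest intervals belong to the members with few counts, such as Chchd4.

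Of the TOM receptors, Tomm70a, which takes precursors from cytosolic chaperones, had the smallest p of all members in Mfn1-/- against WT. It stood at 8.07, 6.66 and 7.85 CPM in WT, 10.2, 12.6 and 9.83 in Mfn1-/-, 8.06, 9.13 and 6.96 in Mfn2-/-, and 8.92, 9.86 and 9.84 in Mfn1&2-/-. All Mfn1-/- and Mfn1&2-/- libraries lay above the WT libraries, and Mfn2-/- overlapped WT. The log2 difference in Mfn1-/- was 0.53 ± 0.23 (SE) and did not pass the test (edgeR adjusted p = 0.359). The other 5 Tomm genes (Tomm6, Tomm20, Tomm22, Tomm34 and Tomm40) did not pass in any comparison. Their log2 fold changes against WT ran from -0.63 (Tomm6, a small subunit, in Mfn1&2-/-) to 0.46 (Tomm20, the presequence receptor, in Mfn1-/-). Tomm40, which forms the pore itself, differed from WT by -0.31, 0.09 and -0.11 in Mfn1-/-, Mfn2-/- and Mfn1&2-/-. Tomm20 has 7 near-identical annotated copies, and Tomm6 overlaps 1 gene on its own strand and 2 on the opposite strand, so their counts are uncertain.

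In the SAM complex, Mtx2, a metaxin on the cytosolic face, stood at 19.7, 18.3 and 16.0 CPM in WT and at 18.5, 16.6 and 17.0 in Mfn1-/-. It stood at 23.6, 21.9 and 22.5 in Mfn2-/- and at 11.4, 18.0 and 17.1 in Mfn1&2-/-. The Mfn2-/- libraries lay above all others, while the other groups overlapped. The difference of Mfn1&2-/- from Mfn2-/- was -0.55 ± 0.20 on the log2 scale (edgeR adjusted p = 0.0887) and that of Mfn2-/- from WT 0.33 ± 0.20 (adjusted p = 0.308), so neither passed. Samm50, the barrel that inserts other barrel proteins, differed from WT by 0.10 or less in either direction in each mutant, with 95% intervals between -0.76 and 0.78.

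In the TIM23 channel, Timm17a, a channel subunit, stood at 61.6, 63.2 and 60.6 CPM in WT and at 59.0, 48.7 and 47.5 in Mfn1-/-. It stood at 65.3, 61.2 and 61.0 in Mfn2-/- and at 73.7, 64.9 and 48.4 in Mfn1&2-/-. The Mfn1-/- libraries lay below WT, and the Mfn1&2-/- libraries overlapped all other groups. Its difference between Mfn1&2-/- and Mfn1-/-, 0.27 ± 0.15 (edgeR adjusted p = 0.318), had the smallest p of any member in that comparison.

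Timm17b, the X-linked paralog of Timm17a, stood at 4.07, 6.07 and 4.01 CPM in WT and at 6.77, 8.21 and 7.41 in Mfn1-/-. It stood at 2.40, 3.74 and 2.34 in Mfn2-/- and at 5.64, 8.02 and 4.16 in Mfn1&2-/-. Mfn1-/- lay above and Mfn2-/- below WT without overlap. Timm17b did not pass the test in either (0.66 ± 0.35, adjusted p = 0.448, and -0.74 ± 0.36, adjusted p = 0.203, edgeR). Between Mfn1&2-/- and Mfn2-/- it differed by 1.08 ± 0.36 (edgeR adjusted p = 0.0667), which DESeq2 called (adjusted p = 0.0399).

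Per kb of transcript, Timm17a was 3.40 to 4.95 times as abundant as Timm17b in WT. These ratios rest on annotated lengths of 7280 bases for Timm17a and 2381 for Timm17b, and the lengths in oocytes were not determined. The ratio was 1.94 to 2.85 in Mfn1-/-, 5.36 to 8.91 in Mfn2-/- and 2.65 to 4.28 in Mfn1&2-/-. The ratios of Mfn1-/- and Mfn2-/- lay on opposite sides of WT without overlap, while those of Mfn1&2-/- overlapped WT; this was noticed in the values and not tested. Each of the pair has 1 near-identical annotated copy, and Timm17b also overlaps a gene on the opposite strand.

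Timm21, which links the channel to the respiratory chain, stood at 8.63 and 9.78 CPM in WT replicates 1 and 2 and at 18.0 in WT replicate 3. It was 7.08 to 7.90 CPM in Mfn1-/-. Its unadjusted p was below 0.05 there, with a log2 difference of -0.67 ± 0.30 (edgeR adjusted p = 0.364). Without WT replicate 3, where the summed granulosa markers were also highest, the difference was -0.28 (adjusted p = 0.793). Timm23 and Timm50, the pore and its presequence receptor, differed from WT by 0.02 to 0.51 across the mutants and did not pass.

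In the motor, Timm44 stood at 54.9, 57.7 and 70.4 CPM in WT and at 55.0, 58.0 and 54.0 in Mfn1-/-. It stood at 43.3, 51.6 and 54.8 in Mfn2-/- and at 55.6, 67.1 and 66.4 in Mfn1&2-/-. The Mfn2-/- libraries lay below the WT and Mfn1&2-/- libraries by narrow margins. Timm44 differed by -0.29 ± 0.14 between Mfn2-/- and WT (edgeR adjusted p = 0.193) and by 0.34 ± 0.14 between Mfn1&2-/- and Mfn2-/- (adjusted p = 0.130). Its interaction was 0.47 ± 0.19 (edgeR adjusted p = 0.178), so it did not pass in any of these.

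Pam16, the member with the smallest spread between pools, gave log2 differences of -0.04 to 0.16 in the comparisons between groups. Dnajc19, the J protein that Pam16 binds, differed from WT by -0.97 in Mfn2-/- with a 95% interval of -2.01 to 0.07, at 23 to 71 counts a library. It differed from WT by -0.45 (-1.47 to 0.58) in Mfn1-/- and by -0.20 (-1.23 to 0.82) in Mfn1&2-/-. It is also the member nearest to a deleted gene, 1.48 Mb from Mfn1, and no other member lay within 10 Mb of Mfn1 or Mfn2. The nucleotide exchange factors of the motor's Hsp70 are Grpel1 and Grpel2. Grpel1 was 1.08 to 3.45 times as abundant per kb as Grpel2 across the 12 libraries, with overlap between all groups.

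Pmpcb, the catalytic subunit of the matrix peptidase that removes presequences, stood at 24.4, 20.9 and 19.5 CPM in WT and at 26.1, 26.1 and 14.7 in Mfn1-/-. It stood at 17.8, 17.8 and 24.6 in Mfn2-/- and at 14.1, 18.5 and 19.2 in Mfn1&2-/-. The Mfn1&2-/- libraries lay below WT, and the others overlapped WT. Its difference in Mfn1&2-/- was -0.32 ± 0.24 (edgeR adjusted p = 0.518). The partner subunit Pmpca differed by -0.31, -0.22 and -0.46 in Mfn1-/-, Mfn2-/- and Mfn1&2-/- and did not pass either, and it stood at 0.114 to 0.262 of the Pmpcb level per kb.

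Among the small TIM chaperones, Timm9 stood at 82.4, 77.9 and 68.9 CPM in WT and at 82.5, 75.7 and 82.3 in Mfn1-/-. It stood at 76.6, 76.3 and 83.4 in Mfn2-/- and at 74.6, 88.5 and 79.7 in Mfn1&2-/-. All groups overlapped, and the 95% intervals against WT stayed between -0.19 and 0.32, so a 2-fold change of Timm9 lay outside them. Its partner Timm10 was measured with 31 to 174 counts, and a 2-fold change of it lay inside the interval in each mutant. Timm8a1, the mouse counterpart of the human deafness-dystonia gene, stood at 0.0399 to 0.170 of its paralog Timm8b per kb. The 7 members of this class ran from -0.34 (Timm8b in Mfn2-/-) to 0.88 (Timm13 in Mfn1&2-/-) and did not pass the test. The TIM22 subunit Timm29 is in the table under its older name 1810026J23Rik, outside the rule. It stood at 25.8 to 29.4 CPM in Mfn1-/- and at 12.9 to 23.9 in the other libraries, and its difference between Mfn1&2-/- and Mfn1-/- was -0.76 (edgeR adjusted p = 0.0553).

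In the MIA relay, Gfer stood at 144, 157 and 126 CPM in WT and at 170, 164 and 160 in Mfn1-/-. It stood at 153, 129 and 149 in Mfn2-/- and at 197, 164 and 153 in Mfn1&2-/-. The Mfn1-/- libraries lay above WT, and the other mutants overlapped WT. Gfer had the smallest p of any member in Mfn1&2-/- against WT, at 0.27 ± 0.11 (edgeR adjusted p = 0.218). Chchd4 stood at 0.319 to 1.27 CPM in WT and at 0.505 to 2.57 in the mutants, with differences of 1.17 ± 0.74, 1.05 ± 0.74 and 0.50 ± 0.75 in Mfn1-/-, Mfn2-/- and Mfn1&2-/- that did not pass.

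Genes that work with the import machinery were read from 8 lists, of which 55 of 59 genes were measured. None was called in Mfn1-/- against WT (all genes 0.228%), with 4 at an unadjusted edgeR p below 0.05 (all genes 12.8%). In Mfn2-/- against WT 2 were higher and 5 lower (12.7%, all genes 11.4%). In Mfn1&2-/- against WT 1 was higher (Hspa8) and 1 lower (Hsp90ab1), or 3.64% (all genes 4.21%). Against Mfn1-/- 2 were higher (Hspa8 and Dnajc11) and 1 lower (Hspa9), or 5.45% (all genes 5.36%). In Mfn1&2-/- against Mfn2-/- 4 were higher and 3 lower (12.7%, all genes 10.2%), and the interaction was called for 3 (Hspa8, Hsp90ab1 and Aifm1), or 5.45% (all genes 4.13%). All 3 interaction calls ended with a replicate block (edgeR adjusted p = 0.0589, 0.0762 and 0.0709), and those of Hsp90ab1 and Aifm1 also with scaling by library size only (0.0773 and 0.0803). With a library left out, Hspa8 passed only without WT replicate 1, Mfn1-/- replicate 3 or Mfn1&2-/- replicate 3, Hsp90ab1 only without Mfn1&2-/- replicate 2, and Aifm1 only without Mfn1&2-/- replicate 3 (adjusted p otherwise up to 0.0853, 0.11 and 0.106).

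The list of cytosolic targeting genes held chaperones that carry precursors to Tomm70a and Tomm20, and also Naca, Btf3, Ubqln1 and Atad1. It had 3 of the 7 calls in Mfn2-/- against WT, from 10 measured genes, beside 11.4% of all genes called there. That difference was not tested. The median log2 change of the 10 measured genes of that list was -0.15 there, against 0.01 over all genes. Hsp90ab1, a cytosolic HSP90, stood at 875, 825 and 874 CPM in WT, 571, 584 and 543 in Mfn2-/- and 693, 565 and 638 in Mfn1&2-/-. It fell by 0.60 (edgeR adjusted p = 0.000444) and by 0.44 (adjusted p = 0.00752) on the log2 scale. Hsp90ab1 stood at 677 to 720 CPM in Mfn1-/-, also below WT, with a difference of -0.31 that did not pass (adjusted p = 0.137). Dnaja2, a J protein of HSP70, stood at 254 to 257 CPM in Mfn2-/- and at 315 to 346 in WT, and fell by 0.39 (edgeR adjusted p = 0.0135). Hsp90aa1, the other cytosolic HSP90, fell in Mfn2-/- by 0.34 (edgeR adjusted p = 0.0373). That call ended with a replicate block (adjusted p = 0.0522) and without WT replicate 2 or 3 or Mfn2-/- replicate 2 or 3 (up to 0.147).

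Hspa8, the constitutive cytosolic HSP70, stood at 1242, 1141 and 1011 CPM in Mfn1&2-/- and at 665 to 854 in the other 9 libraries, without overlap. It rose in Mfn1&2-/- by 0.52 against WT (edgeR adjusted p = 0.0101), by 0.49 against Mfn1-/- (0.0111) and by 0.63 against Mfn2-/- (0.00173). Without Mfn1-/- replicate 1 the call against Mfn1-/- ended (adjusted p = 0.0590). Hspa9, the mitochondrial HSP70 that drives the import motor with Timm44 and the Grpel proteins, was 364, 313 and 310 CPM in Mfn1&2-/- against 383 to 518 elsewhere. It fell by 0.51 against Mfn1-/- (adjusted p = 0.0247) and by 0.47 against Mfn2-/- (0.0246) by edgeR. Against WT the difference was -0.35 and did not pass (adjusted p = 0.124). Each of the 2 Hspa9 calls ended without Mfn1&2-/- replicate 2 or 3 or without replicates of the other group, 1 or 2 of Mfn1-/- and 2 or 3 of Mfn2-/- (adjusted p up to 0.106).

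Between the membranes, Cmc1, a substrate of the MIA relay, stood at 35.9, 36.5 and 40.2 CPM in Mfn2-/- and at 19.5 to 21.8 in WT, and rose by 0.85 (edgeR adjusted p = 0.00584). Aifm1, which binds Chchd4 and aids its import, stood at 29.1, 38.4 and 30.0 CPM in Mfn2-/- against 44.7, 49.8 and 49.7 in WT, and fell by 0.57 (adjusted p = 0.0322). That call ended without WT replicate 2 or 3 or Mfn2-/- replicate 1 or 3 (adjusted p up to 0.112). Apoo, a subunit of the MICOS complex that shapes the cristae, stood at 5.19 to 7.81 CPM in Mfn2-/- and at 1.69 to 2.32 in WT, and rose by 1.61 (adjusted p = 0.0245, up to 0.104 without WT replicate 2 or 3 or Mfn2-/- replicate 2 or 3).

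Of 7 measured regulators of genes for mitochondrial proteins (Nrf1, Gabpa, Gabpb1, Gabpb2, Yy1, Tfam and Ppargc1b), 1 was called in Mfn2-/- against WT, where 11.4% of all genes were. Nrf1, which encodes the factor whose core motif was searched above, stood at 141, 101 and 234 CPM in WT and at 55.1, 70.7 and 62.4 in Mfn2-/-, and fell by 1.34 on the log2 scale (edgeR adjusted p = 0.00857). Without WT replicate 3, the highest WT value and the library with the high granulosa markers, the difference was -0.95 (adjusted p = 0.0499). Nrf1 was 78.1 to 179 CPM in Mfn1&2-/-, with a difference of -0.46 from WT that did not pass (adjusted p = 0.427). The DNA-binding GABP subunit, Gabpa, stood at 2.80 to 11.4 CPM over the 12 libraries and did not pass in any comparison.

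**Figure D5:**
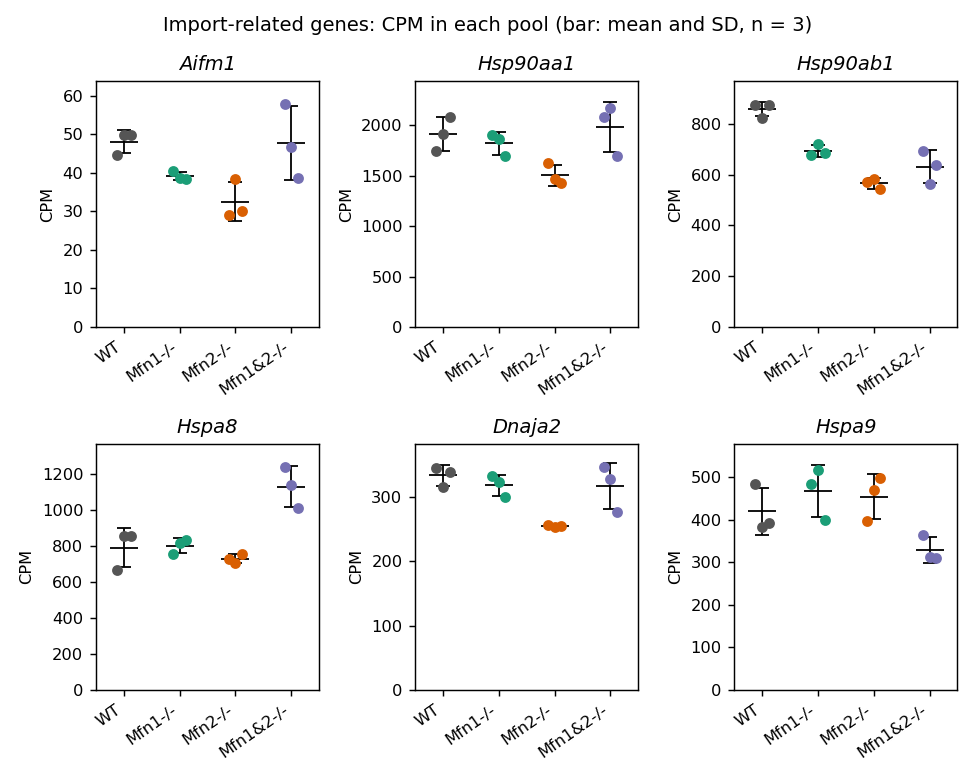
CPM (linear axis from 0) in each of the 3 libraries of each group for 6 genes that work with the import machinery, with the mean and SD as bars. Hsp90ab1 is lower in Mfn2-/- (543 to 584) than in WT (825 to 875), and Hspa8 is highest in Mfn1&2-/- (1011 to 1242).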

How the data were processed

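RNA was extracted with a PicoPure kit and ribosomal RNA was depleted in a SMARTer stranded low-input kit, per the labels' protocols. Tools named in the submitters' processing notes are STAR 2.7.0a, FastQC 0.11.7 and edgeR, and the genome is mm10. The deposited count table holds raw counts per gene, and every gene exceeds 1 CPM in 3 or more of them. The signal table deposited by the authors holds CPM, which a recomputation with TMM factors matched to a relative 5.07e-15, and served that check only. The sources used here do not give the annotation, strand setting or multi-mapping rule. A pool labelled Mn2-/- was placed in Mfn2-/- by its description.

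Counts were fitted with edgeR 4.0.16 (R 4.3.3) by quasi-likelihood on all 12 libraries, with TMM scaling, a mean for each group and thus 8 residual degrees of freedom. None of the 11385 genes was removed by filterByExpr. P-values were adjusted by Benjamini-Hochberg over the whole table. The SE is the absolute log2 fold change over the square root of F. Alternatives were DESeq2 1.42.0, limma-voom 3.58.1, other scalings and filters, a replicate block, only the groups compared, and each library left out. Same-numbered libraries, by the replicate numbers of the sample titles, correlated at -0.13 to 0.18 in their deviations from group means. Libraries with different numbers were not compared, so whether pools were paired was not tested. Positions and lengths are from GENCODE vM21.

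Members given in every library are those called, the smallest p where none is called, and otherwise the highest mean CPM of a role. Timm17b, Timm21 and Hsp90aa1 were added after their values were seen. Members and lists were chosen with earlier results of these data known.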

Additional observations from a re-analysis of the deposited data

Results flagged for a closer look

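Tomm7 is given here because the effect of losing Mfn2 differed between oocytes with and without Mfn1. The difference was 1.46 on the log2 scale (SE 0.35, edgeR adjusted p = 0.0325 over all genes), from a log2 change of -1.43 with Mfn1 present to 0.03 with Mfn1 absent. All 3 Mfn2-/- libraries lay below all 3 WT libraries, while the Mfn1&2-/- and Mfn1-/- libraries overlapped. The call was lost without any of 9 of the 12 libraries.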

How the results depend on the processing

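Both calls of Tomm7 between groups held in all 8 other settings (adjusted p up to 0.0132) and in all 12 fits with a library left out (up to 0.0200). Its interaction held in 7 of 7 other settings, and the count of members called there was 0 to 1 with a library left out. DESeq2 called 2 members in Mfn1&2-/- against Mfn2-/-, the added one being Timm17b. Counts over all genes moved more. DESeq2 called 224 genes in Mfn1-/- against WT (edgeR 26), 834 in Mfn1&2-/- against WT (479), 1044 in Mfn1&2-/- against Mfn1-/- (610) and 903 for the interaction (470). With only the groups compared, Mfn1-/- against WT gave 13. The replicate block gave 276 genes for the interaction, and changed no call of a member. With each library left out the all-gene counts ran from 3 (without Mfn1-/- replicate 2) to 51 (without Mfn1-/- replicate 3) in Mfn1-/- against WT and from 708 (without Mfn2-/- replicate 2) to 1429 in Mfn2-/- against WT. They ran from 282 (without Mfn1&2-/- replicate 2) to 550 in Mfn1&2-/- against WT, from 295 (without Mfn1-/- replicate 1) to 689 against Mfn1-/-, and from 570 to 1302 against Mfn2-/- and 160 to 464 for the interaction (both lowest without Mfn2-/- replicate 2). The cause of these moves was not tested. Scaling by library size alone shifted the median interaction of all genes to -0.12, from -0.01. Members with few counts (Chchd4 4 to 41, Timm13 10 to 64) could show only changes above 2-fold.

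The import-related genes were tried under the same settings, chosen after seeing the data. Of 22 calls, 7 held without any 1 library: Hsp90ab1 and Hspa8 (2 calls each), Dnaja2, Cmc1 and Nrf1. The replicate block ended 6 of the 22: the 3 interaction calls, Aifm1 and Dnaja2 in Mfn1&2-/- against Mfn2-/- (adjusted p = 0.0545 and 0.0579), and Hsp90aa1 in Mfn2-/- against WT (0.0522).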
